A study of Homo sapiens with 18 samples.

Results

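The genes described here lie in a stretch of band 1q32 on the long arm of chromosome 1, from KLHL12 to SMYD2 (GRCh37, chr1:202860244-214510474, 11.65 Mb). They are the 49 genes that start in this window and have a mean of at least 8 CPM (a gene's counts relative to the total of its library) over 18 RNA-seq libraries, out of 10088 genes at that level in the whole series. Of the 49, 47 are protein coding, LINC00467 is a long noncoding RNA and RPL21P28 is a ribosomal protein pseudogene. In the levels below, each library total was also multiplied by its TMM factor, a scaling for RNA composition. The count table lists 258 genes that start in the window, 142 of them with at least 1 read. The window was picked because its genes were lower in CARM1 knockout than in WT cells. Differences between koCARM1 and WT under the same treatment are therefore a description. Calls from a test on these contrasts only sort genes into lower, higher and not called, and no p-value is printed for them. P-values are given for the responses to tunicamycin, their differences between genotypes and the XBP1 knockdown, which did not choose the window.

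A1847 is a human ovarian carcinoma line described by the study as high grade serous. WT cells, cells with a lentiviral CRISPR knockout of CARM1 (koCARM1) and cells with a short hairpin RNA against XBP1 (shXBP1) were each given vehicle (ctr) or 5 μg/ml tunicamycin (TM) for 8 h, with 3 libraries per group. Tunicamycin blocks protein glycosylation in the ER and so starts the unfolded protein response. Whether the WT cells carried a control vector, and whether the knockout cells were a pool or a single clone, is not given in the sources used here, nor is it said whether the 3 libraries of a group came from separate cultures. If they did not, p-values measure technical spread only. The same WT libraries served both modified genotypes.

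Gain of the long arm of chromosome 1 is common in carcinomas, and 1q32 holds MDM4, an inhibitor of p53, and several kinase genes. A gain or loss of a chromosome segment changes the DNA dose of all genes in it at once, and mRNA often follows dose in part, with wide differences between genes. Neighbouring genes can also share chromatin, and a gene at the edge of a segment marks where a common shift begins or ends. DNA was not measured in this series, so the values below are mRNA levels only.

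Library totals ran from 9367462 to 13917212 counts, the lowest and the highest both in koCARM1 ctr. The 6 koCARM1 libraries stood apart from the other 12 over all genes. Correlations of log2 CPM with WT and shXBP1 libraries were 0.730 to 0.775, against 0.986 to 0.989 between replicates and 0.961 to 0.987 between WT and shXBP1. These 6 libraries are the whole knockout group, so no knockout value can be given without them. CARM1 mRNA had 160 to 165 CPM in WT ctr and 71.6 to 77.7 in koCARM1 ctr, a level that says nothing of the protein. XBP1 had 43.2 to 51.1 CPM in WT ctr and 24.1 to 26.5 in shXBP1 ctr. The Mullerian marker PAX8 was at 0 to 0.166 CPM in WT and 0 to 0.142 in shXBP1 libraries, and at 39.9 to 65.2 in koCARM1. COL1A2, a fibrillar collagen chain, had 702 to 867 CPM in WT, 575 to 849 in shXBP1 and 0 to 2.70 in koCARM1. The other fibrillar collagen gene of the list, COL1A1, went the opposite way, with 8.2 to 17.3 CPM in WT, 4.47 to 10.4 in shXBP1 and 183 to 494 in koCARM1. The summed level of 5 epithelial markers was 311 to 488 CPM in WT, 131 to 214 in shXBP1 and 1836 to 2277 in koCARM1, that of 3 fibroblast markers 711 to 886, 581 to 859 and 184 to 495, and that of 3 leukocyte markers at most 1.16, 0.843 and 3.44, while the endothelial marker CDH5 did not exceed 0.115 CPM anywhere. Of 4 Mullerian and ovarian carcinoma markers, MUC16 was at 0 in every library and EMX2 at 0 in all WT and koCARM1 libraries. These differences move with the koCARM1 label, and their part in the 1q32 values was not tested. No genotype data were used to check that the koCARM1 libraries come from the same cells as WT, so loss of CARM1 and a line or clone that differs in other ways cannot be told apart in any koCARM1 value below.

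Without tunicamycin 39 of the 49 genes were lower in koCARM1 than in WT at a false discovery rate (FDR) of 5% in edgeR's quasi-likelihood test, when 36.9% of all 17317 genes tested were lower. A further 9 were higher (37.5% of all genes) and only SOX13 was not called. With tunicamycin 41 were lower (36.8%), 7 were higher (38.4%) and ELK4 was not called. In 39 genes all 3 koCARM1 ctr libraries lay below all 3 WT ctr libraries (36.4% of all genes), and in 41 this held with tunicamycin (38.1%). The median log2 fold change was −1.31 without and −1.36 with tunicamycin, against −0.03 and −0.02 over all genes tested. The koCARM1 ctr and TM contrasts have no library in common, but the window was chosen on both. Agreement between them is therefore part of the choice and a description only. Of the 49, 38 were lower under both treatments, 7 were higher under both and 42 differed by less than 0.5 log2 units between treatments. Neither these counts nor the correlation below were taken over all genes. Across the 49 genes, which are not independent, the correlation of both sets of folds was 0.949, and 0.946 over 46 genes without KISS1, LAMB3 and ATF3.

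**Figure D1:**
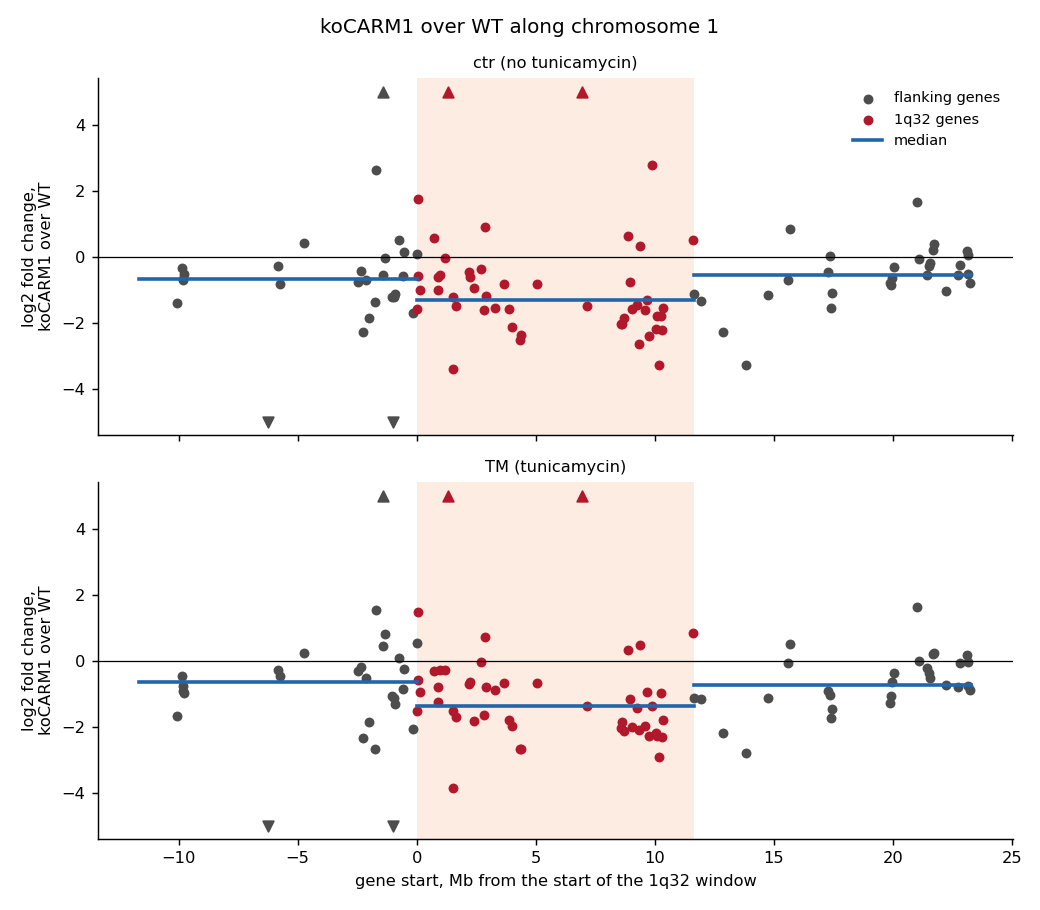
Log2 fold change of koCARM1 over WT (vertical axis) against the start of each gene in Mb from the start of the 1q32 window (horizontal axis), without (top) and with tunicamycin (bottom). Red points are the 49 genes of the window (shaded), grey points the 28 genes before and 29 genes after it, blue lines the medians, and triangles genes beyond 5 units, of which KISS1 and LAMB3 are in the window. Most red points lie below 0, with medians of −1.31 and −1.36, and the flanks are also below 0.

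The shift did not stop at the borders of the window. Stretches of equal length on either side, held to the same expression minimum, had medians of −0.69 (28 genes before it) and −0.55 (29 genes after it) without tunicamycin, and −0.65 and −0.72 with it. All 946 such genes of chromosome 1 outside the window, with both arms pooled and the flanks included, had medians of −0.19 and −0.18. The autosomes and X were also divided into bins of the window's length, and the 194 with at least 20 such genes were kept. The window had the lowest median under both treatments, and the others ran from −1.11 to 1.11 and from −1.20 to 1.40. It was picked for its low values, so its rank follows from the choice and is a description only. Outside the window, every kept bin on the long arm of chromosome 1 had a negative median under both treatments. The first of them (120 genes) had −0.73 under both, the next (55 genes) −0.82 and −0.85, and the last (27 genes) −0.13 and −0.12. Short-arm bins ran from −0.42 to 0.80 without tunicamycin and from −0.18 to 0.85 with it. Lower values were thus not confined to the window and its flanks. When the window was cut into 4 stretches of equal length, the first was nearest to the flanks. Its 20 genes had medians of −0.62 and −0.76, and the 7, 5 and 17 genes of the following stretches had −1.59, −1.86 and −1.57 without tunicamycin and −1.81, −1.85 and −1.79 with it.

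The 49 genes shared a direction more than a size. The interquartile range without tunicamycin ran from −1.81 to −0.57, a width of 1.24, and over all 10088 genes at the same level this width was 1.23 around a median of −0.05. Within 0.5 units of their own median lay 36.7% of the 1q32 genes and 42.1% of the 10088. If mRNA followed DNA dose exactly, loss of 1 of 2 copies would give a log2 ratio of −1.0, loss of 1 of 3 copies −0.585, of 1 of 4 copies −0.415 and of 3 of 4 copies −2. Values of −1 or less were found for 57.1% of the 1q32 genes without and 55.1% with tunicamycin, against 15.4% and 14.8% of the 10088. Under both treatments 24 genes were below −1, a count not taken over all genes. Folds of the 49 genes lay both below and above these ratios, and a change in copy number was not tested. Among 34 other genes of the window that were tested but had less than 8 CPM, 9 were lower (36.9% of all genes tested) and 13 higher (37.5%) without tunicamycin, with a median of 0.04.

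**Figure D2:**
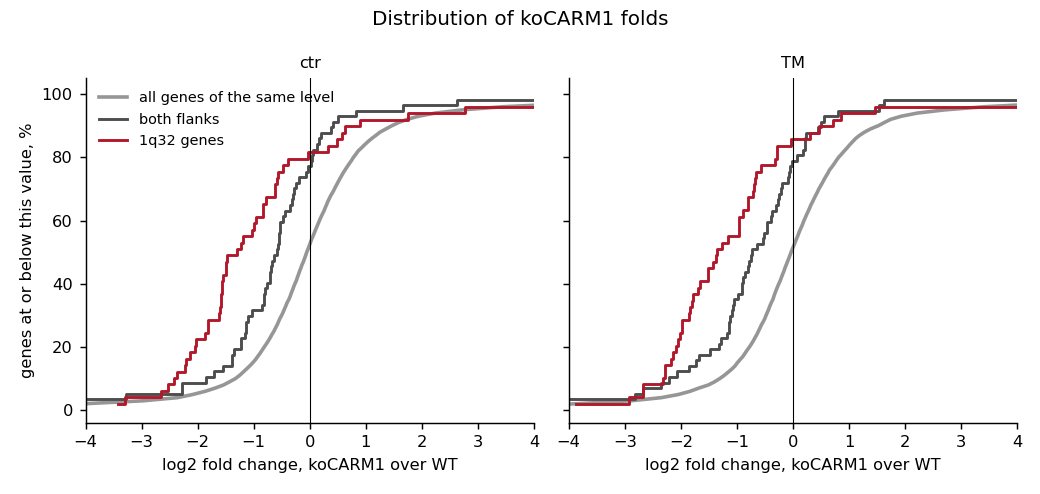
Share of genes (percent, vertical axis) with a koCARM1 over WT log2 fold change at or below the value on the horizontal axis, for the 49 genes of 1q32 (red), both flanks (dark grey) and all 10088 genes with at least 8 CPM (light grey), without (left) and with tunicamycin (right). The red curve lies to the left of the others up to about 0 and has a slope like theirs, as its interquartile width of 1.24 against 1.23 shows, and the axis ends at 4 units either way.

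At its first border the window opens with KLHL12, an adaptor of a CUL3 ubiquitin ligase, with log2 fold changes of −1.59 and −1.52 (ctr and TM, here and below). The adiponectin receptor gene ADIPOR1 follows with −0.59 and −0.57, and CYB5R1, a cytochrome b5 reductase gene, with 1.75 and 1.47. Just outside, RABIF stood at 0.07 and 0.55, the histone demethylase gene KDM5B at −1.71 and −2.06 and PPP1R12B at 0.13 and −0.25. High and low genes thus alternated on either side of this border. The last genes inside the other border were ANGEL2 (−2.23 and −2.32), RPS6KC1 (−1.57 and −1.79) and the lysine methyltransferase gene SMYD2, which was higher (0.49 and 0.85). Beyond it PTPN14 (−1.14 and −1.14), the kinetochore gene CENPF (−1.34 and −1.18) and KCTD3 (−2.28 and −2.21) were as low as genes within.

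The role lists are broad, and SLC30A1 and LPGAT1 each stand in 2 of them. All are drawn from the 49 genes, of which 39 were lower without and 41 with tunicamycin. A share of lower genes above that of all genes therefore follows from the choice of the window and says nothing of a role. The list of chromatin and transcription held 9 genes, of which 6 were lower and 2 higher without tunicamycin, beside 36.9% and 37.5% of all genes. It includes RPS6KC1, a kinase-like gene. NUCKS1, a nuclear DNA-binding phosphoprotein, had 4487, 4469 and 4116 CPM in WT ctr and 1478, 1471 and 1482 in koCARM1 ctr. With tunicamycin it had 4635, 4610 and 4651 in WT and 1492, 1469 and 1439 in koCARM1. The knockout libraries agreed closely with each other and lay far below WT, at log2 fold changes of −1.61 and −1.65. RCOR3, a corepressor that binds the demethylase KDM1A, had 53.7 ± 1.7 CPM (SD, n = 3) in WT ctr and 13.4 ± 2.22 in koCARM1 ctr, with folds of −2.03 and −2.04. RBBP5, a core subunit of the MLL histone methyltransferase complexes, was only modestly lower, with 64.2 to 67.9 against 46.5 to 51.0 CPM. ZBED6, a repressor gene that lies within ZC3H11A and may share reads with it, had folds of −1.03 and −1.26. SOX13 (−0.03 and −0.29) and ELK4 (−0.39 and −0.04), both transcription factors, were each called under 1 treatment only, and the call of SOX13 with tunicamycin was lost without WT TM replicate 2, where its fold was −0.22, and without WT TM replicate 3 (−0.28) or koCARM1 TM replicate 1 (−0.23) or 2 (−0.29). It was also lost with DESeq2 or its size factors (−0.27 each), with at least 10 counts in every library (−0.24) and without a filter (−0.28).

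The list of RNA processing and translation held 7 genes, among them the deubiquitinase gene YOD1, and all 7 were lower under both treatments (36.9% and 36.8% of all genes). SNRPE, an Sm core protein of spliceosomal snRNPs, had 331, 323 and 363 CPM in WT ctr and 224, 254 and 231 in koCARM1 ctr. EIF2D, an initiation factor, had 52.8, 46.3 and 56.4 against 17.8, 17.8 and 17.7. PPP1R15B directs a phosphatase to eIF2α and so lifts the translational brake of stressed cells. It had 57.5 to 63.1 CPM in WT ctr and 23.6 to 28.2 in koCARM1 ctr, and 83.9 to 88.0 and 26.4 to 32.1 with tunicamycin. INTS7, an Integrator subunit, had folds of −1.48 and −1.42, UTP25, needed for ribosome biogenesis, −1.50 and −1.36, and YOD1, which overlaps PFKFB2, −2.36 and −2.67.

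The list of the cell cycle and p53 control held 7 genes, of which 6 were lower (36.9% and 36.8% of all genes) and SLC30A1 was higher (0.63 and 0.31). SLC30A1, a zinc exporter gene, and NENF, which encodes a secreted neurotrophic factor, are in this list without being cell cycle genes. For SLC30A1 the call with tunicamycin was lost without koCARM1 TM replicate 2, at 0.20. MDM4 had 136, 137 and 132 CPM in WT ctr and 51.8, 49.6 and 46.9 in koCARM1 ctr, and 250, 249 and 244 against 74.7, 77.1 and 76.0 with tunicamycin. DTL, the substrate receptor of the CUL4 ligase that degrades CDT1 in S phase, had 163 to 165 CPM in WT ctr and 25.6 to 28.9 in koCARM1 ctr. NENF was about as low, at −2.42 and −2.29. NEK2, a centrosomal kinase, was less reduced, with 44.8 to 52.0 and 28.6 to 30.6 CPM. Reads of FAM72A may be shared with near-identical copies, and its libraries varied widely, from 17.1 to 33.4 CPM in WT ctr alone.

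The list of kinases and signalling held 8 genes, among them the acyltransferase gene LPGAT1, and all 8 were lower under both treatments (36.9% and 36.8% of all genes), with medians of −1.83 and −1.98. PIK3C2B, a class II phosphoinositide 3-kinase, had the lowest folds of the 49 genes, −3.42 and −3.86. It had 12.3, 13.1 and 9.98 CPM in WT ctr and 1.55, 0.922 and 0.802 in koCARM1 ctr. MAPKAPK2, the kinase that acts downstream of p38, had 246 to 262 CPM in WT ctr and 59.0 to 61.8 in koCARM1 ctr. PFKFB2, which makes the glycolytic activator fructose 2,6-bisphosphate, had 17.6 to 20.3 and 2.87 to 3.89. For TRAF5, an adaptor of TNF receptors, the folds were −2.04 and −1.85, for the PP2A regulatory subunit gene PPP2R5A −1.62 and −1.97, and for DSTYK −0.62 and −0.66.

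Both cell surface genes went different ways. CD46, which protects cells from complement, had 40.9 to 44.7 CPM in WT ctr and 22.9 to 27.7 in koCARM1 ctr. LAMB3, the beta 3 chain of laminin 332, had 1 to 3 counts in the WT ctr and 336 to 601 in the koCARM1 ctr libraries, and 1 to 5 and 902 to 1066 with tunicamycin. KISS1, a secreted peptide gene, was likewise present almost only in the knockout, with 0 to 2 counts in WT ctr, 0 in WT TM, 323 to 479 in koCARM1 ctr and 185 to 216 in koCARM1 TM. Under tunicamycin KISS1 was at least 66.4-fold higher in koCARM1, taking 3 counts per library as the upper limit of an undetected gene. KISS1 and LAMB3 reached the mean of 8 CPM over all libraries only through their koCARM1 libraries. A high level in koCARM1 was thus a condition of their entry into the gene set, and their folds are a description only. In shXBP1 libraries LAMB3 had 0 to 3 counts and KISS1 0 to 5. Both genes lie above the median of the window, which does not depend on how far above it they lie.

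Membrane traffic, transport and metabolism counted 10 genes, of which 6 were lower and 4 higher without tunicamycin, beside 36.9% and 37.5% of all genes. The share of higher genes was thus near that of all genes. FLVCR1, a heme and choline transporter that was in no role list, had 47.0, 50.5 and 46.4 CPM in WT ctr against 5.59, 4.61 and 4.81 in koCARM1 ctr, a fold of −3.29, and −2.92 with tunicamycin. CYB5R1 was higher, with 10.6 to 11.2 and 35.8 to 39.9 CPM, as was RAB29, a GTPase that recruits LRRK2, with 26.7 to 31.3 and 53.2 to 56.5. The calcium pump gene ATP2B4 changed side, with 45.8 to 54.3 CPM in WT ctr and 74.2 to 79.5 in koCARM1 ctr but 35.5 to 40.7 and 30.3 to 32.4 with tunicamycin. Neither treatment brought WT and koCARM1 libraries of ATP2B4 into overlap.

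**Figure D3:**
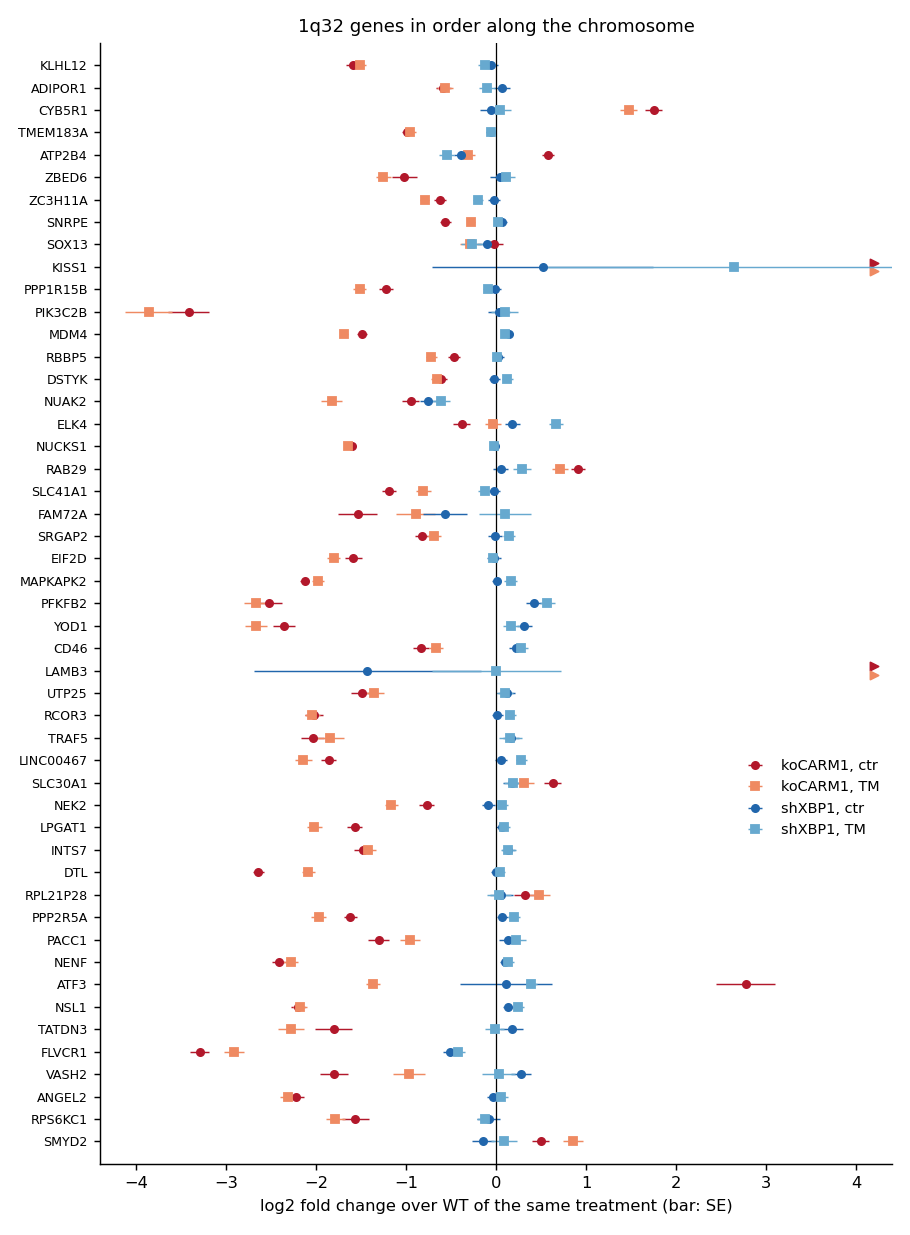
Log2 fold change over WT of the same treatment (horizontal axis, bars are standard errors) for each of the 49 genes in their order along the chromosome, for koCARM1 (red) and shXBP1 (blue), without (circles) and with tunicamycin (squares). Arrowheads mark KISS1 and LAMB3 in koCARM1, which lie off the scale and rest on at most 5 counts in any WT library. The red symbols spread from −3.86 upwards and the blue ones stay near 0 for most genes.

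In the XBP1 knockdown most of the 49 genes were near their WT level. Without tunicamycin 3 of the 49 genes were lower than in WT (3.03% of all genes tested) and 2 higher (2.07%) at an FDR of 5%, with a median of 0.03. With tunicamycin 4 were lower (8.55%) and 6 higher (6.99%), with a median of 0.09. Set against shXBP1 in place of WT, the knockout medians were −1.19 and −1.37. FLVCR1 was lower in the knockdown too, at 30.9, 35.4 and 34.4 CPM, below every WT ctr library, and differed by −0.52 ± 0.0762 (standard error, SE) on the log2 scale (adjusted p = 0.00094, edgeR with Benjamini-Hochberg adjustment here and below). Under tunicamycin it differed by −0.43 (SE 0.0807, adjusted p = 0.00169). NUAK2, an AMPK-related kinase, had 25.5 to 28.5 CPM in WT ctr and 14.5 to 17.8 in shXBP1 ctr, a fold of −0.76 (SE 0.0976, adjusted p = 0.000312), and −0.61 with tunicamycin (adjusted p = 0.000634). ATP2B4 was lower at −0.39 and −0.55 (adjusted p = 0.00793 and 0.00028), and lost the first call without WT ctr replicate 1, at −0.34.

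PFKFB2, among the lowest genes of the knockout, was higher in the knockdown. It had 26.8, 24.0 and 26.4 CPM in shXBP1 ctr and 43.8, 37.8 and 41.9 in shXBP1 TM, and lay above all WT libraries of the same treatment. Its log2 fold changes were 0.42 (adjusted p = 0.0164) and 0.56 (adjusted p = 0.000244). The first was no longer called without WT ctr replicate 1 (0.36) or 2 (0.43) or shXBP1 ctr replicate 1 (0.39) or 3 (0.40), and the call of the overlapping YOD1 (0.31, adjusted p = 0.0466) was lost without WT ctr replicate 1 or 2 or any 1 shXBP1 ctr library (0.29 to 0.34) and with DESeq2 (0.31). ELK4 was higher with tunicamycin, with 34.1 to 35.1 CPM in shXBP1 and 21.7 to 22.1 in WT (0.66, adjusted p = 3.29e-05). LINC00467 (0.27), ATF3 (0.39), CD46 (0.27) and NSL1 (0.24), a kinetochore gene, were also higher and ZC3H11A, an mRNA export factor gene, was lower (−0.21). The calls of CD46, NSL1 and ZC3H11A were each lost without shXBP1 TM replicate 2, at 0.21, 0.23 and −0.17, those of CD46 and NSL1 also without shXBP1 TM replicate 1 (0.28 and 0.21), those of CD46 and ZC3H11A also without WT TM replicate 3 (0.26 and −0.21) and that of CD46 also without WT TM replicate 2 (0.23) and with DESeq2 (0.27). MDM4, NUCKS1 and MAPKAPK2, all low in the knockout and picked here after their values were seen, were not called in the knockdown without tunicamycin. In MDM4 the 95% interval of the knockdown difference without tunicamycin was 0.04 to 0.24, in NUCKS1 −0.09 to 0.06 and in MAPKAPK2 −0.09 to 0.10 on the log2 scale.

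**Figure D4:**
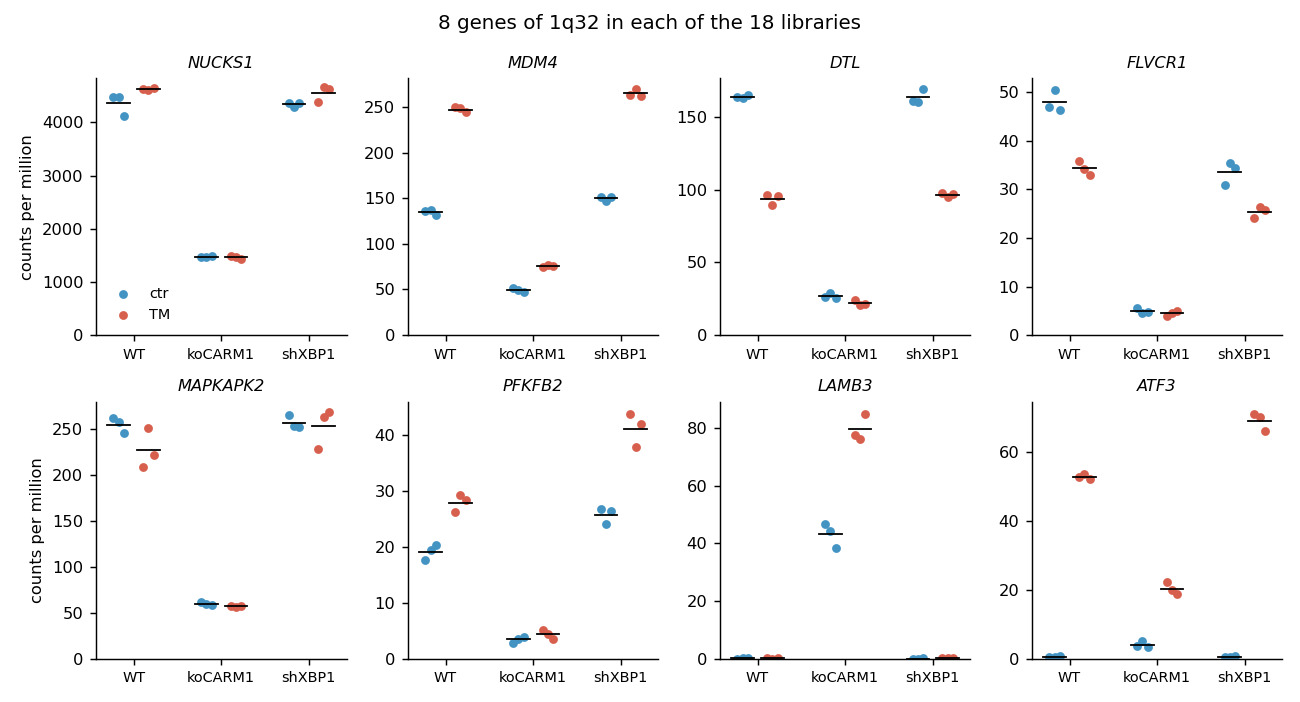
CPM (vertical axes, from 0) of 8 genes of 1q32 in each of the 18 libraries, grouped by genotype, without (blue) and with tunicamycin (red). Points are libraries and bars the means of 3. NUCKS1, MDM4, DTL, FLVCR1, MAPKAPK2 and PFKFB2 are lower in every koCARM1 library than in any WT or shXBP1 library, LAMB3 is near 0 outside koCARM1, and ATF3 is higher in koCARM1 ctr and lower in koCARM1 TM.

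With tunicamycin 13 of the 49 genes were lower (19.9% of all genes tested) and 13 higher (22.0%) in WT. In koCARM1 9 were lower (18.8%) and 6 higher (20.6%), in shXBP1 11 lower (19.0%) and 14 higher (19.2%), and 15 were called in none of the 3. ATF3, MDM4, ZC3H11A and INTS7 rose in all 3 genotypes, and TMEM183A, ATP2B4, SNRPE and DTL fell in all 3. For calls in all 3 genotypes or in none, shares over all genes were not taken, so these counts are a description only. INTS7 lost its call in koCARM1 without koCARM1 TM replicate 3 (0.29) or koCARM1 ctr replicate 1 (0.23) and in shXBP1 without shXBP1 TM replicate 3 (0.21), and DTL lost its call in koCARM1 without koCARM1 TM replicate 2 (−0.21) or 3 (−0.24) or koCARM1 ctr replicate 2 (−0.21). With DESeq2 neither was called in koCARM1 (0.35 for INTS7 and −0.26 for DTL). MDM4 rose by 0.88 log2 units in WT (SE 0.0522, adjusted p = 9.52e-10), 0.65 in koCARM1 (adjusted p = 2.82e-09) and 0.82 in shXBP1 (adjusted p = 1.01e-09). The replication gene DTL fell by 0.79 in WT, 0.26 in koCARM1 and 0.77 in shXBP1. TATDN3, a DNase-like gene, rose in WT (0.93, adjusted p = 9.8e-06) and VASH2, a tubulin carboxypeptidase gene, fell (−1.11, adjusted p = 7.64e-06).

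ATF3, a bZIP factor of the stress response, had by far the largest rise. It had 0.387, 0.589 and 0.737 CPM in WT ctr (5 to 11 counts) and 52.5, 53.6 and 52.1 in WT TM, which is 6.50 ± 0.152 (SE) on the log2 scale (adjusted p = 1.1e-14). In shXBP1 it went from 0.497 to 0.772 CPM up to 65.9 to 70.8, a fold of 6.76 (adjusted p = 9.32e-15). In koCARM1 it started higher, at 3.57, 5.20 and 3.55 CPM, and reached only 22.1, 19.8 and 18.9, a fold of 2.33 (SE 0.141, adjusted p = 9.73e-12). The knockout libraries thus lay above WT without tunicamycin and below WT with it.

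The promoters of the 3 genes with the largest rises in WT, among the 4 that rose in all genotypes, were read for 3 short motifs and the ER stress response element, because these genes moved together with tunicamycin. Shown are the 250 bases before the start of the canonical transcript, 5′ to 3′ on the + strand of GRCh37, with matches in capitals.
ATF3, chr1:212781853-212782102: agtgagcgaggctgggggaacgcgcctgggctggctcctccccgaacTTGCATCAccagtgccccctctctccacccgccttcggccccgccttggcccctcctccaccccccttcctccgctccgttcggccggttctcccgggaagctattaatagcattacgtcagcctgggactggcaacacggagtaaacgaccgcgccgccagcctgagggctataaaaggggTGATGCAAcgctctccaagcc
MDM4, chr1:204485284-204485533: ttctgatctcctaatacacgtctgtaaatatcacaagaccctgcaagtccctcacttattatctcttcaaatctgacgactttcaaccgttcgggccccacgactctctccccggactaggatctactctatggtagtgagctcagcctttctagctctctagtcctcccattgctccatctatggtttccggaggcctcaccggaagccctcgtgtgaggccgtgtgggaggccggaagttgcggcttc
ZC3H11A, chr1:203764501-203764750: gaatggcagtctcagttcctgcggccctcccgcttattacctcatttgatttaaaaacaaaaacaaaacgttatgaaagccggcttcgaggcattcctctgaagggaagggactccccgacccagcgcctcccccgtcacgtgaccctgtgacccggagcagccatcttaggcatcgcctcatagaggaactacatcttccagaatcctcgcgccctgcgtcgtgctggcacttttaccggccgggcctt
In ATF3 the letters TTGCATCA, the core of a composite site for C/EBP and ATF factors, were matched 203 bases before the start and, on the opposite strand, 21 bases before it, and 0.565% of 19819 promoters of this length hold at least 1 match on either strand. MDM4 and ZC3H11A held none of the motifs searched. These were, besides TTGCATCA, TGACGTGG (0.691% of promoters), TGACGTCA (2.40%) and the ER stress response element (0.106%), on both strands, and a match is only a description of the sequence.

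For 13 of the 49 genes the tunicamycin response differed between koCARM1 and WT, tested as the interaction term. It was lower in the knockout for 9 (12.4% of all genes tested) and higher for 4 (10.5%). These counts depended on single libraries. Without WT TM replicate 1 or 3 or WT ctr replicate 1 or 3 the 9 became 5, and without koCARM1 ctr replicate 2 or 3 the 4 became 2. Of the 13, ATF3 (−4.19), ATP2B4 (−0.94), NUAK2 (−0.93), DTL (0.51), LPGAT1 (−0.50) and NEK2 (−0.44) stayed called whichever single library was left out. The ATF3 term had an SE of 0.266 (adjusted p = 6.01e-10). ATP2B4 fell by 1.27 with tunicamycin in koCARM1 and by 0.36 in WT, and the difference had an adjusted p of 1.68e-06. NUAK2 went from 13.7 to 15.3 CPM in koCARM1 ctr to 6.35 to 8.98 in koCARM1 TM, while WT libraries stayed between 25.5 and 29.1 (interaction adjusted p = 0.000141).

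In the knockdown the interaction was called for 1 gene, ELK4, which was higher (0.46, adjusted p = 0.0381, with 0.364% of all genes higher), and for 0 genes as lower (1.67%). Its call was kept only without WT ctr replicate 3 or shXBP1 ctr replicate 1, and lost without any other single library of the 12 (0.40 to 0.48). By DESeq2 the numbers were 1 and 0. At an unadjusted p under 0.05 in edgeR 2 genes were higher, ELK4 and LINC00467 (5.24% of all genes), and 1 was lower, ZC3H11A (8.32%). The ATF3 interaction in the knockdown was 0.27 with an interval of −0.38 to 0.91.

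**Figure D5:**
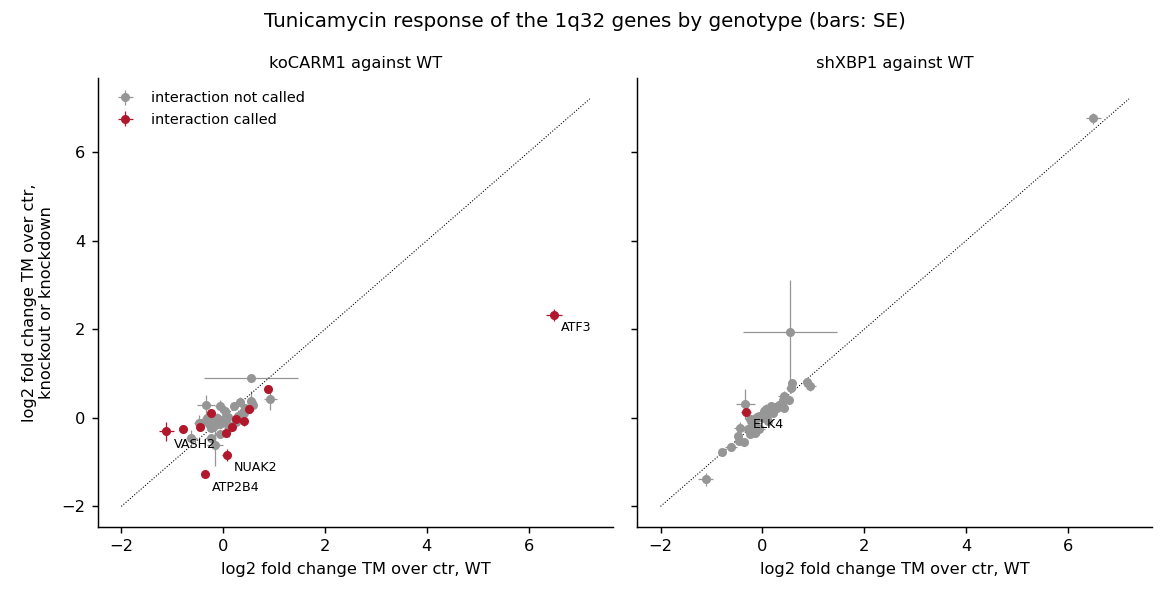
Log2 fold change of tunicamycin over vehicle in koCARM1 (left) or shXBP1 (right, vertical axes) against that in WT (horizontal axis) for the genes of 1q32 without KISS1, with standard errors as bars and the line of equal response dotted. Red points have an interaction called at an FDR of 5%, 13 for koCARM1 and ELK4 for shXBP1. ATF3 lies far below the line for koCARM1, at 6.50 and 2.33, and near it for shXBP1, at 6.50 and 6.76.

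The products of many 1q32 genes work with proteins encoded elsewhere, and 44 of 45 such partner or paralog genes were tested. In koCARM1 19 of the 44 were lower and 17 higher without tunicamycin, and 18 and 18 with it, with medians of −0.04 and −0.05. Over all genes tested 36.9% were lower and 37.5% higher without tunicamycin and 36.8% and 38.4% with it, so the partners were near the shares of all genes. Of the 6 other Sm protein genes that join SNRPE, 5 were lower without tunicamycin, as with SNRPD3 (−0.75), and SNRPB was higher (0.44). With tunicamycin SNRPD3 alone was lower (−0.63), SNRPG (0.65) and SNRPB (0.61) were higher and the other 3 were not called. With RBBP5 go WDR5 (0.34), DPY30 (0.55) and ASH2L, which was not called, and KMT2A (−1.20). KDM1A, the partner of RCOR3, was lower (−1.70), and CUL4A and DDB1, the partners of DTL, were higher without tunicamycin (0.88 and 0.32). CUL4B, the paralog of CUL4A, was not called without tunicamycin (0.12) and was lower with it (−0.44). PPP1R15A, the stress-induced paralog of PPP1R15B, was higher at 3.71. Partners at −1 or below made up 11.4% of the 44 without and 13.6% with tunicamycin. In shXBP1 0 of the 44 partners were lower (3.03% of all genes tested) and 1 was higher (2.07%) without tunicamycin. With it 4 were lower (8.55%) and 5 higher (6.99%).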

How the data were processed

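RNA of A1847 cells was sequenced from its 3 prime ends as 75 nt single reads. Alignment to hg19 was by bowtie2. RSEM (version 1.2.3 in the submitters' processing notes, a later one in the study's methods) gave the expected counts of Ensembl genes that the authors deposited, as whole numbers without normalization. All 18 columns were matched to labelled samples. GENCODE v44lift37 gave GRCh37 positions for 55501 of 57736 genes.

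edgeR 4.0.16 (R 4.3.3, limma 3.58.1) was run on group pairs with TMM, filterByExpr at a minimum count of 10, quasi-likelihood F tests and Benjamini-Hochberg adjustment over 17317 genes. All 49 genes of 1q32 passed the filter. Standard errors are the log2 fold change over the square root of F. Chi-square per degree of freedom between replicates was 1.84 to 6.89 over 18 pairs, above counting error. DESeq2 1.42.0 was an alternative. The scripts were tested on simulated data.

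The window, role lists, partner list and markers were chosen with earlier results of these data known. Genes named are those of the role lists, the 5 lowest and 5 highest in koCARM1, border genes, those called in shXBP1, the largest tunicamycin changes and the largest interactions. TMEM183A, in the lists, is named by its call only. One gene among the partners is counted but not reported here. Promoters are the 250 bases before GENCODE canonical starts, read from the GRCh37 genome, since the RefSeq table lists other starts for ATF3. Strand of counting is not given in the sources used here, so overlapping genes (ZBED6 with ZC3H11A, YOD1 with PFKFB2, INTS7 with DTL, RPL21P28 within DTL) may share reads.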

Additional observations from a re-analysis of the deposited data

Results flagged for a closer look

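For 14 results the difference between 2 genotypes in the response to tunicamycin passed the interaction test (edgeR's quasi-likelihood test, FDR of 5%), and each is given as the difference in log2 fold change from WT. In koCARM1 the response was lower for ATF3 (−4.19), ATP2B4 (−0.94), NUAK2 (−0.93), LPGAT1 (−0.50), an acyltransferase gene, NEK2 (−0.44), PPP2R5A (−0.40), PPP1R15B (−0.34), RBBP5 (−0.30) and MDM4 (−0.25). It was higher for VASH2 (0.79), DTL (0.51), the magnesium transporter gene SLC41A1 (0.33) and SNRPE (0.24). In shXBP1 it was higher for ELK4 (0.46).

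MDM4 was not called without any 1 of the WT libraries or koCARM1 ctr replicate 1, with values of −0.22 to −0.17. PPP1R15B was not called without any 1 of the WT libraries, koCARM1 TM replicate 3 or koCARM1 ctr replicate 1 or 2 (−0.32 to −0.24). RBBP5 was lost without any WT library but WT ctr replicate 2 (−0.25 to −0.21). PPP2R5A was lost without WT TM replicate 1 or 3, WT ctr replicate 1 or 3, koCARM1 TM replicate 3 or koCARM1 ctr replicate 1 (−0.35 to −0.28). SLC41A1 was lost without koCARM1 TM replicate 2 or 3 or koCARM1 ctr replicate 2 or 3 (0.27 to 0.34), SNRPE without koCARM1 TM replicate 1 or koCARM1 ctr replicate 1 or 3 (0.20 to 0.23), and VASH2 without koCARM1 TM replicate 3 or koCARM1 ctr replicate 2 (0.72 and 0.69). Without the filter on low counts the calls of RBBP5, PPP1R15B and MDM4 were also lost, and that of PPP1R15B with at least 10 counts in every library. These results kept their direction in each case.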

How the results depend on the processing

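The koCARM1 median without tunicamycin, −1.31, became −1.27 with DESeq2 or its size factors, −1.26 with all 18 libraries in 1 fit, −1.43 with at least 10 counts in every library (45 genes), −1.23 with a minimum of 4 or of 16 CPM or without 8 genes that share reads, −1.19 against shXBP1 and −1.48 without KISS1 and LAMB3. It ranged from −1.37 to −1.19 with single libraries left out. With tunicamycin it became −1.06 at a minimum of 4 CPM (61 genes) and −1.37 to −1.25 with single libraries left out. In shXBP1 ctr the 2 higher genes became 1 with DESeq2 or with the replicate block, and 0 to 2 with single libraries left out. The 1 higher gene in the shXBP1 interaction became 2 without the filter, 0 with the replicate block and 0 to 1 with single libraries left out. For the koCARM1 interaction these ranges were 5 to 10 lower and 2 to 5 higher genes. Same-numbered replicates did not deviate together (correlations of −0.048 to 0.0387 over 21 pairs), so the replicate block has no stated basis. No direction reversed among 2787 values of 225 results on single genes, and 144 of these values lost the call, 121 of them with a library left out. The cause of these changes was not tested, and counts of few reads limit PIK3C2B, KISS1, LAMB3 and ATF3.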
